A study of Mus musculus with 6 samples.

Results

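Lineage transcription factors are DNA-binding proteins that set and hold the identity of a cell type. The 41 genes described here were chosen by symbol: factors of heart muscle (GATA, NKX, TBX, HAND, MEF2 and ISL genes), of mesenchyme and stroma (TWIST, SNAI, ZEB, PRRX and TCF21), of skeleton and neural crest (RUNX and SOX), of vessels (SOX, ETS, NR2F and FOXC), of blood (TAL1, SPI1 and C/EBP), and of fat and skeletal muscle. Of these, 39 are among the 27482 gene symbols of the count table, and Sox17 and Myog were not analysed here. RNA-seq was done on 6 libraries labelled as mouse heart. In 3 of them the mice overexpressed FNDC4 from an AAV9 vector (AAV9-hFNDC4), and in the other 3 they had received a control AAV9 (AAV9-CTRL). All mice had cardiac ischemia/reperfusion (I/R), a temporary stop of blood flow, and hearts were collected 24 h later. AAV9 is a viral vector that reaches the heart, and FNDC4 is a secreted protein. The promoter of the vectors is not given in the sources used here, and the strain and age are not given either. The series title names male mice.

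In the embryo, GATA4, NKX2-5, TBX5, HAND and MEF2 factors act together to switch on the contractile genes of heart muscle, and most of them stay on in adult cardiomyocytes. TCF21 marks the resident fibroblasts of the heart and their epicardial precursors. SNAI, ZEB and TWIST factors repress epithelial adhesion genes and are on in mesenchymal cells. ERG, FLI1, SOX17 and SOX18 mark endothelium, and SPI1 is required for macrophages and other myeloid cells.

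The members fell into an expressed and a nearly silent set, with a gap between them. In CPM, the counts of a gene scaled to a library total of 1e6, 20 of 39 members reached 1 CPM in at least 3 of 6 libraries, against 45.5% of all symbols in the table. All 20 also reached 2 CPM in at least 3 libraries, and 19 of them reached 1 CPM in all 6. Just inside the limit, Gata6 lay between 1.97 and 4.19 CPM. Just outside it, Spi1 peaked at 0.915 CPM and Zeb1 at 0.610 CPM. Of the 19 members below the limit, 4 had 0 counts in every library and 12 had at least 1 and at most 10 counts over all 6 libraries together.

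**Figure D1:**
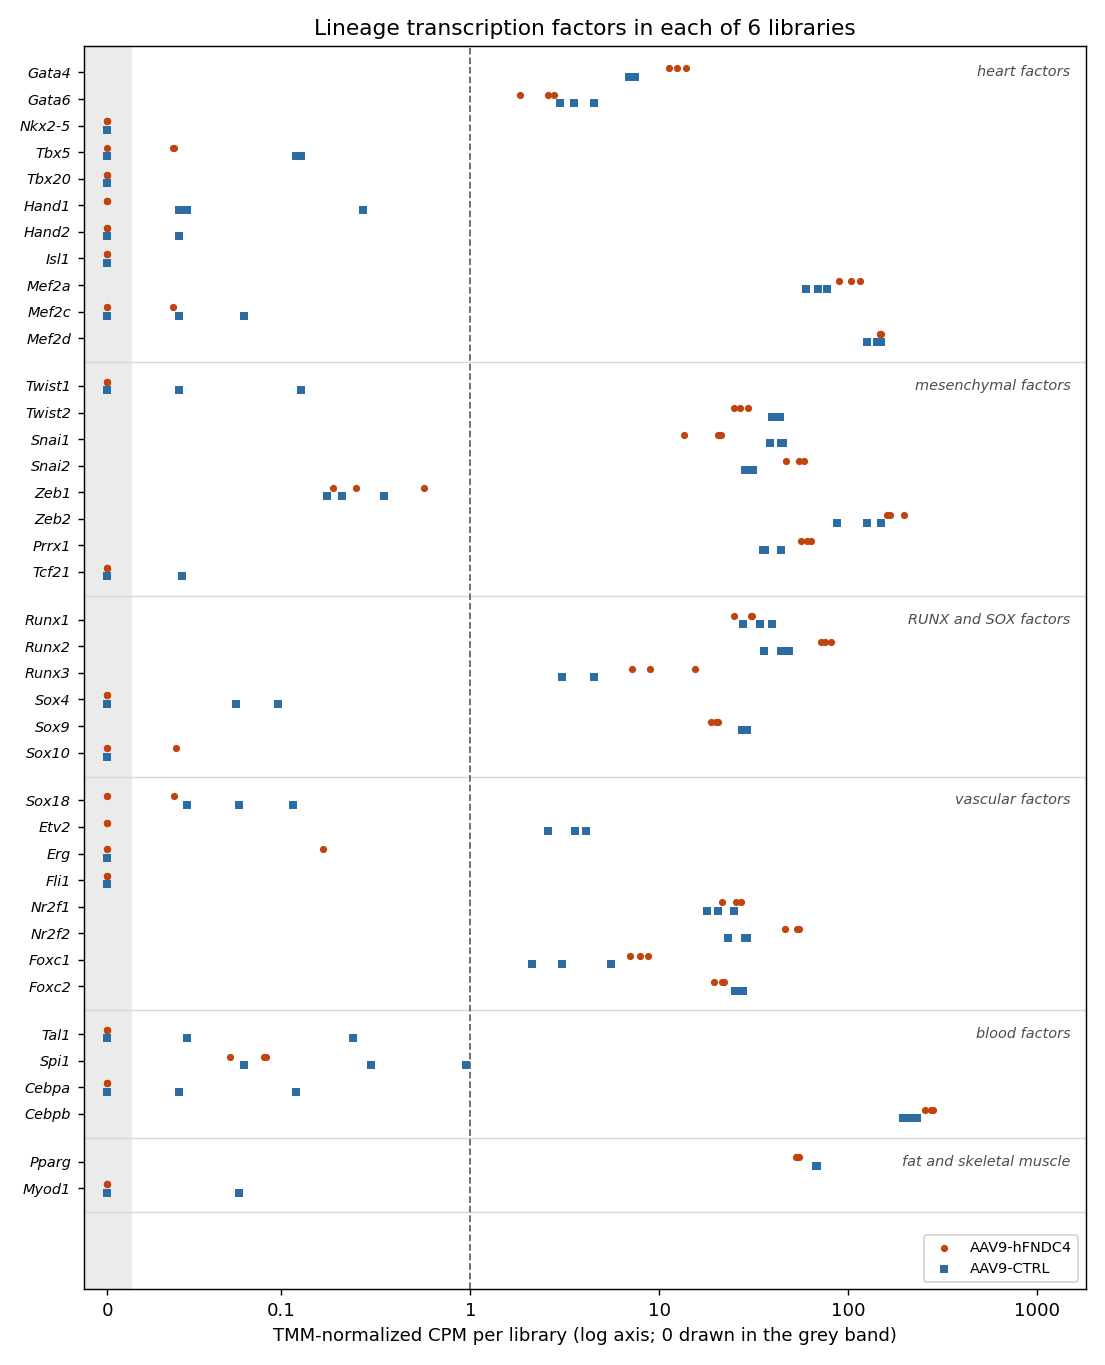
Level of each of 39 factors in each library, in CPM after TMM normalization on a log axis, with values of 0 in the grey band. Orange-red circles are the 3 AAV9-hFNDC4 libraries and blue squares the 3 AAV9-CTRL libraries. The dashed line marks 1 CPM, and 20 factors lie to its right in at least 3 libraries.

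The levels do not follow the tissue label. Nkx2-5, Tbx20 and Isl1 (heart) and Fli1 (endothelium and blood) had 0 counts in all 6 libraries, out of 209568068 counts, which allows a level of up to 0.0143 CPM for each. Limits and intervals of this kind cover counting error only. Many defining markers of cell types were nearly as low. For cardiomyocytes, 3 of 19 markers reached 1 CPM in 3 or more libraries. Myh6, the chief ventricular myosin of the mouse, had a mean of 0.277 CPM, and Myl7 and Pln were at 0, while Tnnt2 stood at 44.9 CPM. Among 14 endothelial markers, 4 reached 1 CPM in as many libraries, with Cdh5 at 0.0297 CPM and Emcn and Cldn5 at 0, but Eng at 224 CPM. Of 16 leukocyte markers, 6 did, with Ptprc at 0.0912 CPM and Cd68, the highest, at 19.8 CPM. Among 14 fibroblast markers, 10 did, with Col1a2 at 1298 CPM and Pdgfra at 155 CPM, while Dcn stood at 0.0424 CPM and Lum had 1 count. The group names below are therefore the labels' names only. In libraries of bulk RNA, fewer cells of a type and less RNA per cell cannot be told apart.

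**Figure D2:**
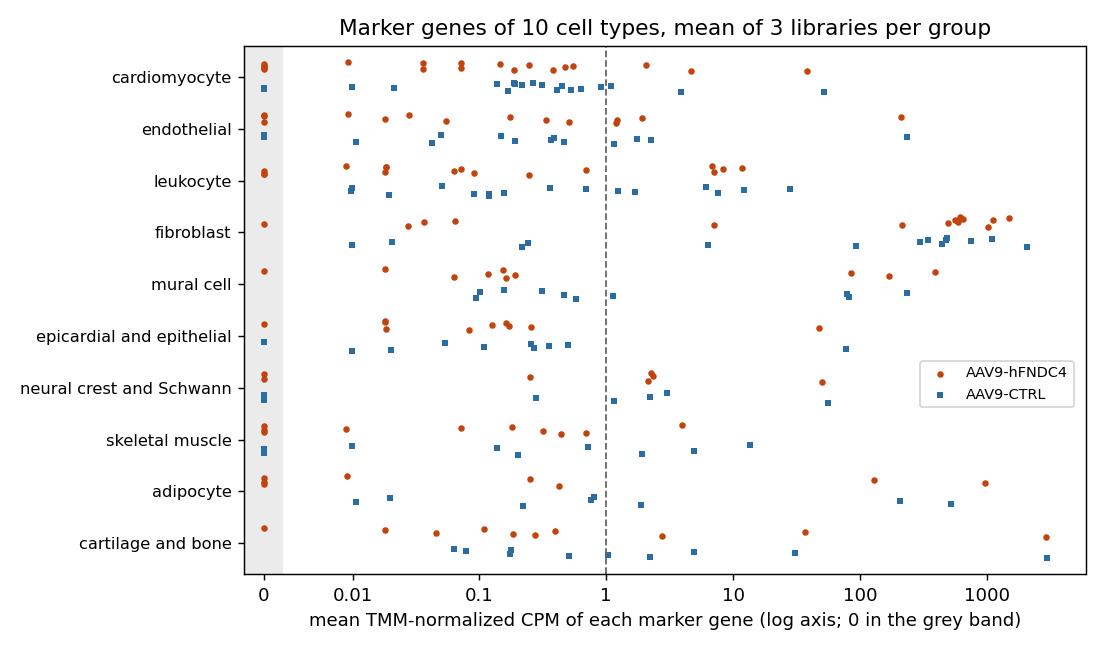
Mean level of each marker gene of 10 cell types, in CPM after TMM normalization on a log axis, with values of 0 in the grey band. Orange-red circles are means of 3 AAV9-hFNDC4 libraries and blue squares means of 3 AAV9-CTRL libraries. Fibroblast markers are the list with most genes above 1 CPM (10 of 14), against 3 of 19 for cardiomyocytes.

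Total counts lay between 34419687 and 35149915 in the AAV9-hFNDC4 libraries and between 32975817 and 36074046 in the AAV9-CTRL libraries. The groups stood apart in the number of gene symbols with at least 1 count, 18717 to 18863 in the AAV9-hFNDC4 libraries and 20431 to 20870 in the AAV9-CTRL libraries. Of the 15 members below 1 CPM that had any count, 12 had more counts in the AAV9-CTRL libraries and 3 had more in the AAV9-hFNDC4 libraries. The part of this difference between libraries in the values of sparse genes, among them Etv2, Hand1, Tal1, Spi1 and Adipoq, was not tested. Fndc4 itself was not analysed here, and the group labels could not be checked with it. Whether each library is a different mouse is not stated in the labels, and the p-values cover no more than the variation among these 6 libraries, possibly technical. From here on, levels are CPM after TMM normalization, a scaling of library sizes, given in the order of replicates 1, 2 and 3. Log2 fold changes are AAV9-hFNDC4 over AAV9-CTRL, with standard errors (SE), and p-values are from edgeR's quasi-likelihood test with Benjamini-Hochberg adjustment over 14663 genes. A change means an adjusted p under 0.05.

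All 20 expressed members were tested, and 16 changed, 10 higher and 6 lower. Over all 14663 genes tested, 47.1% changed, 22.1% higher and 25.0% lower. Etv2 was tested only because of its level in the AAV9-CTRL libraries, and it therefore had to differ. Without it, 15 of 19 changed, 10 higher and 5 lower. The groups did not overlap for 17 of the 20, against 56.6% of all tested genes. The median log2 fold change was 0.29 over the 20 members (0.36 without Etv2), against 0.01 over all tested genes, and the median of its absolute size was 0.62, against 0.45. With a fold change of at least 2 also required, 2 members were higher and 2 lower (Etv2 included), and 14.0% of all tested genes changed. The widest changes among members present in both groups were those of Runx3 (2.62-fold higher) and of Snai1, which was 2.33-fold lower.

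The sequences below are promoters of 3 members: Etv2 and Snai1, with the widest falls, and Runx2, which was higher. The rise of Runx2 (its fold is under 2) kept its adjusted p under 0.05 in 14 of 14 other fits. Those of Gata4, Mef2a, Nr2f2, Runx3 and Snai2 did too, and Runx3, Foxc1, Nr2f2 and Snai2 rose more than Runx2. Each is the RefSeq window (GRCm38.p6) from 250 bases before to 50 bases after the annotated start, written 5′ to 3′ on the gene's strand. Capitals mark matches, on either strand, to the E-box bound by SNAI and ZEB factors (letters CACCTG) and to the core bound by RUNX factors (letters ACCACA). A site for GATA factors (letters AGATAA), an ETS site (letters CCGGAA) and a TATA box (letters TATAAA) were also searched on both strands and had no match in these 3 windows. No match overlapped another.
Etv2, chr7:30635803-30636102, minus strand: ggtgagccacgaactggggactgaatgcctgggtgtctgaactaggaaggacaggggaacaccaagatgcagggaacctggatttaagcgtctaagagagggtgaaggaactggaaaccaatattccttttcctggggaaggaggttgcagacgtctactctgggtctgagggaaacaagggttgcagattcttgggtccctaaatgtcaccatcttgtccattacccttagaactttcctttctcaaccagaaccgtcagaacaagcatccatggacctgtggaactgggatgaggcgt
Snai1, chr2:167537945-167538244, plus strand: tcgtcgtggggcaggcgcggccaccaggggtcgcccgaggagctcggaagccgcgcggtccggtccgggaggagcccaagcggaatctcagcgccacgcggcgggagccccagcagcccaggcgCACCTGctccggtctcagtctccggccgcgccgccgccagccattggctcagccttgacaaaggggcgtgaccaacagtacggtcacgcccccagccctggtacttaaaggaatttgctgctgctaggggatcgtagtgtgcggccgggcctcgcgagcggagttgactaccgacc
Runx2, chr17:44814578-44814877, minus strand: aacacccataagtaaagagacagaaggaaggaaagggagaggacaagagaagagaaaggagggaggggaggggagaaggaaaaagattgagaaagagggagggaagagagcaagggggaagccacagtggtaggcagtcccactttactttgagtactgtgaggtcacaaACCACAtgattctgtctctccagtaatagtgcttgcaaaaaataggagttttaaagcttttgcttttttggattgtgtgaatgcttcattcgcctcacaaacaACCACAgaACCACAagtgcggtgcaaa
The Snai1 window held 1 E-box, 126 bases before the start. The Runx2 window held 3 RUNX cores, 1 of them 80 bases before the start and 2 just after it. The Etv2 window held no match. Of 32851 windows of the same length in the mouse table, 20.2% hold the E-box, 16.8% the RUNX core, 11.2% the GATA site, 14.9% the ETS site and 13.6% the TATA box. The table has windows for 26 of the 39 members, and 5 of these 26 members have the E-box and 5 the RUNX core. A match is a string of letters and does not show binding.

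Of 11 heart factors, 4 were expressed. The GATA factors open chromatin at heart and endoderm genes, and their 2 expressed members went opposite ways in mean. Gata4 (chromosome 14, 63198922 to 63271692, GRCm38) had 12.4, 13.9 and 11.2 CPM in the AAV9-hFNDC4 libraries, against 7.03, 7.43 and 6.88 CPM in the AAV9-CTRL libraries. Every AAV9-hFNDC4 library was above every AAV9-CTRL library, a log2 fold change of 0.82 (SE 0.16, edgeR adjusted p = 0.00164). Gata6 had 1.84, 2.77 and 2.58 CPM in the AAV9-hFNDC4 libraries, against 2.98, 3.54 and 4.52 CPM in the AAV9-CTRL libraries. All AAV9-hFNDC4 values were the lower ones, but the difference of -0.62 (SE 0.28) did not pass the test (edgeR adjusted p = 0.0881).

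MEF2 factors bind contractile and stress genes in muscle and are widely expressed outside it. Mef2a had 89.0, 115 and 103 CPM in the AAV9-hFNDC4 libraries, against 76.7, 60.1 and 69.4 CPM in the AAV9-CTRL libraries. The groups did not overlap, and the rise was 0.58 on the log2 scale (SE 0.13, edgeR adjusted p = 0.00338). Mef2d stood at 148 CPM in each AAV9-hFNDC4 library, against 149, 125 and 141 CPM in the AAV9-CTRL libraries, and the groups overlapped (0.09, SE 0.10). Mef2c, the form that heart and endothelium need in development, had 1 count in the AAV9-hFNDC4 libraries and 3 in the AAV9-CTRL libraries. The other heart factors were as sparse. Tbx5 had 2 counts in the AAV9-hFNDC4 libraries and 8 in the AAV9-CTRL libraries. Hand1 had 0 counts in the AAV9-hFNDC4 libraries and 11 in the AAV9-CTRL libraries (9 of them in replicate 3), and Hand2 had 0 in the AAV9-hFNDC4 libraries and 1 in the AAV9-CTRL libraries. An antisense RNA covers 19.6% of the exon bases of Hand2. Summed over the 19 cardiomyocyte markers, the level was 46.3 to 47.4 CPM in the AAV9-hFNDC4 libraries and 61.0 to 61.4 CPM in the AAV9-CTRL libraries. Most of this sum was Tnnt2, at 44.9 CPM over the 6 libraries. Its log2 fold change was -0.44, but -0.05 and not called after a correction for exon length, described further on. The part of these markers in the values of Gata4 and Mef2a was not tested.

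Of 8 mesenchymal factors, 5 were expressed and all 5 changed, 3 higher and 2 lower, against 47.1% of all genes tested. After a correction for exon length, 2 of the 5, Zeb2 and Prrx1, were not called (edgeR adjusted p = 0.768 and 0.0891). The SNAI paralogs moved in opposite directions. Snai1 (chromosome 2, 167538195 to 167542814), the zinc finger repressor of E-cadherin, had 20.4, 13.4 and 21.3 CPM in the AAV9-hFNDC4 libraries, against 38.8, 44.3 and 45.4 CPM in the AAV9-CTRL libraries. The highest AAV9-hFNDC4 value lay well under the lowest AAV9-CTRL value, and the log2 fold change was -1.22 (SE 0.17, edgeR adjusted p = 0.000166). Snai2 (chromosome 16, 14705852 to 14709385), its paralog also known as Slug, had 55.0, 58.1 and 47.1 CPM in the AAV9-hFNDC4 libraries, against 31.4, 28.4 and 29.4 CPM in the AAV9-CTRL libraries. It was higher in every AAV9-hFNDC4 library, by 0.85 on the log2 scale (SE 0.12, edgeR adjusted p = 0.000183). Per kb of exon, Snai2 stood at 26.4 CPM in the AAV9-hFNDC4 libraries and 14.7 CPM in the AAV9-CTRL libraries, and Snai1 at 11.3 CPM in the AAV9-hFNDC4 libraries and 26.4 CPM in the AAV9-CTRL libraries. The more abundant SNAI transcript was thus Snai2 in all AAV9-hFNDC4 libraries and Snai1 in all AAV9-CTRL libraries.

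Of the TWIST genes, bHLH factors of mesoderm and neural crest, Twist2 was expressed and Twist1 was not. Twist2 had 29.5, 24.9 and 26.9 CPM in the AAV9-hFNDC4 libraries, against 39.4, 43.4 and 42.0 CPM in the AAV9-CTRL libraries. It was lower in every AAV9-hFNDC4 library, by -0.62 on the log2 scale (SE 0.11, edgeR adjusted p = 0.00104). A gene on the other strand covers 46.5% of the exon bases of Twist2, and without a stated strand setting the reads of both could not be told apart. The same holds for 54.6% of the exon bases of Sox4, 8.42% of Mef2d and 7.32% of Runx2. Twist1 had 0 counts in the AAV9-hFNDC4 libraries and 5 in the AAV9-CTRL libraries. Prrx1, a homeobox factor of limb and stromal fibroblasts, had 56.2, 63.9 and 60.6 CPM in the AAV9-hFNDC4 libraries, against 44.1, 35.5 and 36.5 CPM in the AAV9-CTRL libraries. The groups did not overlap (log2 fold change 0.64, SE 0.12, edgeR adjusted p = 0.00118).

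Zeb2, a repressor that works with SMAD proteins, had 159.8, 196 and 167 CPM in the AAV9-hFNDC4 libraries, against 149.8, 87.5 and 125 CPM in the AAV9-CTRL libraries. The groups were close to touching, and the call (0.53, SE 0.17, edgeR adjusted p = 0.0231) was lost when AAV9-hFNDC4 replicate 2 (0.44) or AAV9-CTRL replicate 3 (0.55) was left out. With the lowest library, AAV9-CTRL replicate 2, left out, the value was 0.34. Its paralog Zeb1 was nearly silent, with 37 counts in the AAV9-hFNDC4 libraries and 24 in the AAV9-CTRL libraries. Tcf21 had 0 counts in the AAV9-hFNDC4 libraries and 1 in the AAV9-CTRL libraries; it is the usual marker of cardiac fibroblasts. Over the 14 fibroblast markers, summed levels were 6254 to 7049 CPM in the AAV9-hFNDC4 libraries and 5437 to 6521 CPM in the AAV9-CTRL libraries. Of 10 tested fibroblast markers, 5 were higher and 1 lower, against 22.1% and 25.0% of all genes tested. The part of these markers in the mesenchymal factors' values was not tested.

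RUNX factors bind DNA with the partner CBFB and direct blood (Runx1), bone (Runx2) and T cell and neuronal fates (Runx3). All 3 were expressed. Runx2 (chromosome 17, 44495987 to 44814797) had 75.4, 81.0 and 72.0 CPM in the AAV9-hFNDC4 libraries, against 48.6, 35.8 and 43.9 CPM in the AAV9-CTRL libraries. The groups stood far apart, with a log2 fold change of 0.83 (SE 0.13, edgeR adjusted p = 0.000329). Runx3 had 7.18, 15.5 and 8.91 CPM in the AAV9-hFNDC4 libraries, against 4.51, 3.06 and 4.49 CPM in the AAV9-CTRL libraries. Its log2 fold change was 1.39 (SE 0.29, edgeR adjusted p = 0.00221), and AAV9-hFNDC4 replicate 2 stood above the rest. The call was kept without that library. Runx1 had 24.7, 30.7 and 30.9 CPM in the AAV9-hFNDC4 libraries, against 39.7, 27.7 and 34.2 CPM in the AAV9-CTRL libraries, and the groups overlapped (-0.24, SE 0.15). Runx1 was called lower without AAV9-CTRL replicate 2 (-0.36, adjusted p = 0.0428).

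Among the SOX genes, Sox9, a factor of cartilage and of activated fibroblasts, had 20.4, 18.8 and 19.9 CPM in the AAV9-hFNDC4 libraries, against 28.6, 27.4 and 29.1 CPM in the AAV9-CTRL libraries. Replicates lay close together and the groups did not overlap (-0.53, SE 0.11, edgeR adjusted p = 0.00271). Sox4 had 0 counts in the AAV9-hFNDC4 libraries and 5 in the AAV9-CTRL libraries, and the Schwann cell factor Sox10 had 1 count in the AAV9-hFNDC4 libraries and 0 in the AAV9-CTRL libraries. Col2a1, the cartilage collagen that SOX9 activates, was at 0.398 ± 0.0965 CPM in the AAV9-hFNDC4 libraries and 4.96 ± 0.354 CPM in the AAV9-CTRL libraries (SD, n = 3 each), and was lower by -3.63 on the log2 scale (SE 0.31). Spp1, a bone matrix gene activated by RUNX2, stood at 2932 CPM in the AAV9-hFNDC4 libraries against 2988 CPM in the AAV9-CTRL libraries and did not pass the test. Of 6 tested cartilage and bone markers, Col2a1 and Mmp13 were lower and 4 did not pass, against 25.0% lower of all genes tested. Mmp13 was tested only because of its AAV9-CTRL level, 1.03 CPM against 0.183 CPM in the AAV9-hFNDC4 libraries. With a correction for exon length, described further on, Spp1 (0.27, edgeR adjusted p = 0.0469) and Dmp1 (0.36, edgeR adjusted p = 0.0307) were called higher. The value of Spp1 without the correction was -0.03.

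Of 8 vascular factors in the table, 5 were expressed. Etv2 (chromosome 7, 30633616 to 30635852), an ETS factor that starts the endothelial and blood programme in the embryo, was at 0 in all 3 AAV9-hFNDC4 libraries, against 2.57, 3.57 and 4.10 CPM in the AAV9-CTRL libraries. With a floor of 3 counts over the group, 0.0272 CPM, it was at least 125-fold lower. Its level in the AAV9-CTRL libraries alone brought Etv2 into the test, so no p-value is given for it. In all, 67 tested genes had 0 counts in the 3 AAV9-hFNDC4 libraries, and 0 tested genes did in the 3 AAV9-CTRL libraries. The genes on either side of Etv2 were also lower, though far less so. Cox6b1, a respiratory chain subunit, stood at 137 ± 5.47 CPM in the AAV9-hFNDC4 libraries and 254 ± 28.2 CPM in the AAV9-CTRL libraries (SD, n = 3 each). Rbm42, an RNA-binding protein, stood at 66.4 ± 1.25 CPM in the AAV9-hFNDC4 libraries and 130.1 ± 8.55 CPM in the AAV9-CTRL libraries (SD, n = 3 each). Whether the Etv2 counts came from transcripts of its neighbours was not tested. Endothelial marker genes other than Eng were low in both groups. The receptor Flt1 averaged 1.91 CPM in the AAV9-hFNDC4 libraries and 1.74 CPM in the AAV9-CTRL libraries, and the adhesion gene Pecam1 averaged 1.21 CPM in the AAV9-hFNDC4 libraries and 2.24 CPM in the AAV9-CTRL libraries. Kdr, the main VEGF receptor, had 2 counts in the AAV9-hFNDC4 libraries and 36 in the AAV9-CTRL libraries.

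NR2F factors are orphan nuclear receptors, of which Nr2f2 specifies veins and is on in stroma. Nr2f2 (chromosome 7, 70351944 to 70366735) had 54.5, 53.5 and 46.2 CPM in the AAV9-hFNDC4 libraries, against 29.1, 23.2 and 28.4 CPM in the AAV9-CTRL libraries. All AAV9-hFNDC4 values were higher, with a log2 fold change of 0.93 (SE 0.13, edgeR adjusted p = 0.000162). Nr2f1 had 27.1, 21.5 and 25.4 CPM in the AAV9-hFNDC4 libraries, against 18.0, 24.9 and 20.5 CPM in the AAV9-CTRL libraries, and the groups overlapped (0.23, SE 0.15).

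The FOXC paralogs, forkhead factors of vessels and of the head and outflow tract mesenchyme, moved apart. Foxc1 had 7.88, 8.70 and 6.98 CPM in the AAV9-hFNDC4 libraries, against 2.11, 5.58 and 3.05 CPM in the AAV9-CTRL libraries. The log2 fold change was 1.14 (SE 0.31, edgeR adjusted p = 0.00968), and the call was lost without AAV9-CTRL replicate 3 (1.03, adjusted p = 0.0507). Foxc2 had 21.4, 19.6 and 21.9 CPM in the AAV9-hFNDC4 libraries, against 27.4, 25.0 and 27.6 CPM in the AAV9-CTRL libraries. Its small fall of -0.35 (SE 0.12, edgeR adjusted p = 0.0282) was called in 5 of 14 alternatives, with an adjusted p of up to 0.105 in the rest. The call was lost when AAV9-hFNDC4 replicate 1, 2 or 3 (-0.36, -0.30 and -0.37) or AAV9-CTRL replicate 1 or 3 (-0.30 and -0.32) was left out.

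The endothelial factors Erg and Sox18 were below the limit. Erg had 6 counts, all in AAV9-hFNDC4 replicate 2, and Sox18 had 1 count in the AAV9-hFNDC4 libraries and 7 in the AAV9-CTRL libraries. Endothelial markers summed to 203.5 to 225 CPM in the AAV9-hFNDC4 libraries and 232 to 249.6 CPM in the AAV9-CTRL libraries, nearly all of it Eng, a TGF-beta co-receptor that fibroblasts also make. Of 6 tested endothelial markers, edgeR called 0, with 0 at an unadjusted p under 0.05, and limma-voom called 0. DESeq2 called 1, counted over all 14 endothelial markers and not the 6 alone.

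Of 4 blood factors, Cebpb was expressed. Cebpb, a bZIP factor of inflammation and of early fat cell differentiation, had 256, 281 and 274 CPM in the AAV9-hFNDC4 libraries, against 195, 230.3 and 209 CPM in the AAV9-CTRL libraries. Its groups did not overlap, and the log2 fold change was 0.36 (SE 0.10, edgeR adjusted p = 0.0142), a call lost when AAV9-hFNDC4 replicate 3 (adjusted p = 0.0549) or AAV9-CTRL replicate 3 (adjusted p = 0.0573) was left out. Spi1, the myeloid master factor, had 2, 3 and 3 counts in the AAV9-hFNDC4 libraries, against 33, 2 and 10 counts in the AAV9-CTRL libraries. The ratio of summed counts was 0.160 (95% exact binomial interval 0.0652 to 0.343), and most of the AAV9-CTRL counts came from replicate 1. Without that library, left out after the data were seen, the counts were 8 in the AAV9-hFNDC4 libraries and 12 in the AAV9-CTRL libraries, and the ratio was 0.39 with an interval of 0.139 to 1.04, which includes 1. Both other blood factors had 0 counts in the AAV9-hFNDC4 libraries, and in the AAV9-CTRL libraries Tal1 had 9 counts, 8 of them in replicate 3, and Cebpa had 5. Leukocyte markers summed to 33.8 to 37.3 CPM in the AAV9-hFNDC4 libraries and 52.9 to 66.3 CPM in the AAV9-CTRL libraries. Of 7 tested leukocyte markers, 4 were lower, against 25.0% of all genes tested. Among these 4, Itgam and Cd79a were tested only because of their AAV9-CTRL levels and could hardly come out otherwise. The part of these markers in the Cebpb and Spi1 values was not tested.

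Pparg, the nuclear receptor that drives fat cell differentiation, had 53.4, 52.6 and 55.2 CPM in the AAV9-hFNDC4 libraries, against 68.1, 68.5 and 67.3 CPM in the AAV9-CTRL libraries. Values within a group were close and the groups did not overlap, but the fall was small (-0.34, SE 0.10, edgeR adjusted p = 0.0140). It was not called with the replicate number as a block (adjusted p = 0.0594), nor without AAV9-hFNDC4 replicate 1 (-0.33, adjusted p = 0.0643) or replicate 3 (-0.35, adjusted p = 0.0508). Of genes that PPARG activates, Fabp4 was lower (-0.69, SE 0.19, but -0.24 and not called with the length correction) and Lpl higher (0.90, SE 0.11), while Adipoq had 1 count in the AAV9-hFNDC4 libraries and 81 in the AAV9-CTRL libraries. Of 6 tested adipocyte markers, 1 was higher and 3 lower, against 22.1% and 25.0% of all genes tested. Among the lower, Pck1 and Adipoq were tested only because of their AAV9-CTRL levels and could hardly come out otherwise. The summed level, mostly Lpl, was 1024 to 1177 CPM in the AAV9-hFNDC4 libraries and 654.5 to 802 CPM in the AAV9-CTRL libraries. Myod1, the skeletal muscle factor, had 0 counts in the AAV9-hFNDC4 libraries and 2 in the AAV9-CTRL libraries. All 4 tested skeletal muscle markers were lower (3 after correction for length, where Tnni2 lost its call), against 25.0% of all genes tested. Of these, Myh3 and Chrna1 were tested only because of their AAV9-CTRL levels and could hardly come out otherwise. Acta1 stood at 3.96 ± 0.406 CPM in the AAV9-hFNDC4 libraries and 13.7 ± 0.560 CPM in the AAV9-CTRL libraries (SD, n = 3 each).

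**Figure D3:**
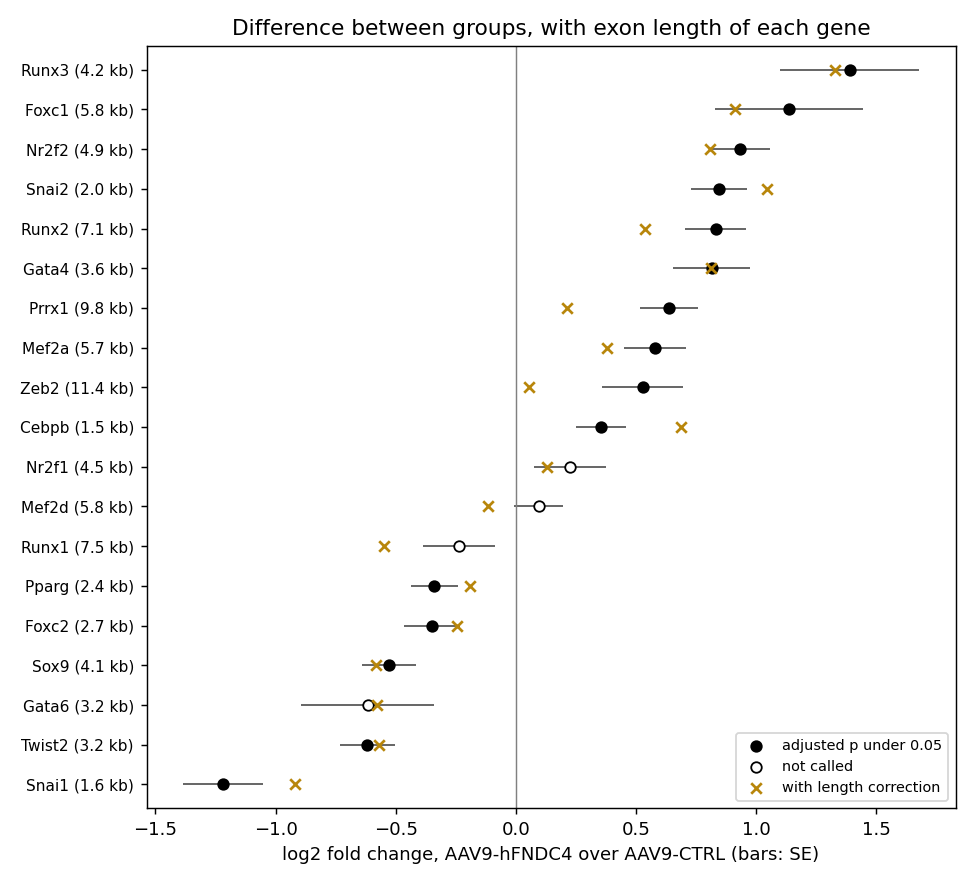
Log2 fold change, AAV9-hFNDC4 over AAV9-CTRL, of 19 expressed factors, with SE bars and the exon length of each gene. Filled circles were called, open circles were not, and crosses give the value after the length correction. Etv2, at 0 in one group, is left out. Snai1 lies lowest at -1.22 and Runx3 highest at 1.39.

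The exon length of a gene moved with the result. After a trend on exon length was removed from each library, the call of Zeb2 (11443 exon bases, the longest of the expressed members) ended at 0.05, and that of Prrx1 (9847 bases) at 0.21, in place of 0.53 and 0.64. The rises of Mef2a and Runx2 stood at 0.38 and 0.54, in place of 0.58 and 0.83, and kept their calls. Cebpb, with 1504 bases, stood at 0.69 in place of 0.36. Runx1 was called lower with the correction (-0.55, adjusted p = 0.00524), and the small falls of Pparg (-0.19) and Foxc2 (-0.24) were not called. Snai2, Snai1, Gata4, Nr2f2, Runx3, Foxc1, Twist2 and Sox9 kept their calls. Etv2 did too, but it was tested only because of its level in the AAV9-CTRL libraries. Of the lists, the fibroblast markers had 4 higher and 1 lower with the correction, and the leukocyte markers 3 lower (Itgam and Cd79a among them). The partners had 5 higher and 5 lower (Lyl1 among them), and the paralogs outside the members 8 higher (Sox6 among them) and 2 lower. Over all 14663 genes this fit called 3081 higher and 3167 lower.

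Ratios between paralogs within a library do not depend on how libraries are scaled. Counts per kb of exon were compared for 8 such ratios, which were chosen with the changes above known. For Snai2 over Snai1 the ratio was 2.16, 3.47 and 1.77 in the AAV9-hFNDC4 libraries, against 0.649, 0.514 and 0.519 in the AAV9-CTRL libraries. By geometric means, used for all these folds, this was 4.25-fold higher, with the balance of both genes turned over between the groups. Gata4 over Gata6 was 5.99, 4.45 and 3.86 in the AAV9-hFNDC4 libraries, against 2.09, 1.86 and 1.35 in the AAV9-CTRL libraries, 2.69-fold higher. Foxc1 over Foxc2 was 3.02-fold higher, at 0.176 ± 0.0294 in the AAV9-hFNDC4 libraries and 0.0638 ± 0.0356 in the AAV9-CTRL libraries (SD, n = 3 each). Runx2 over Runx1 was 2.10-fold higher, Runx3 over Runx1 2.95-fold, Nr2f2 over Nr2f1 1.63-fold and Mef2a over Mef2d 1.39-fold. Runx2 over Runx3 overlapped between the groups. The exact permutation test (two-sided) gave p = 0.1 for 7 ratios, the smallest that 3 against 3 libraries allow, and p = 0.2 for Runx2 over Runx3 (0.114 and 0.2 adjusted over the 8 ratios).

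**Figure D4:**
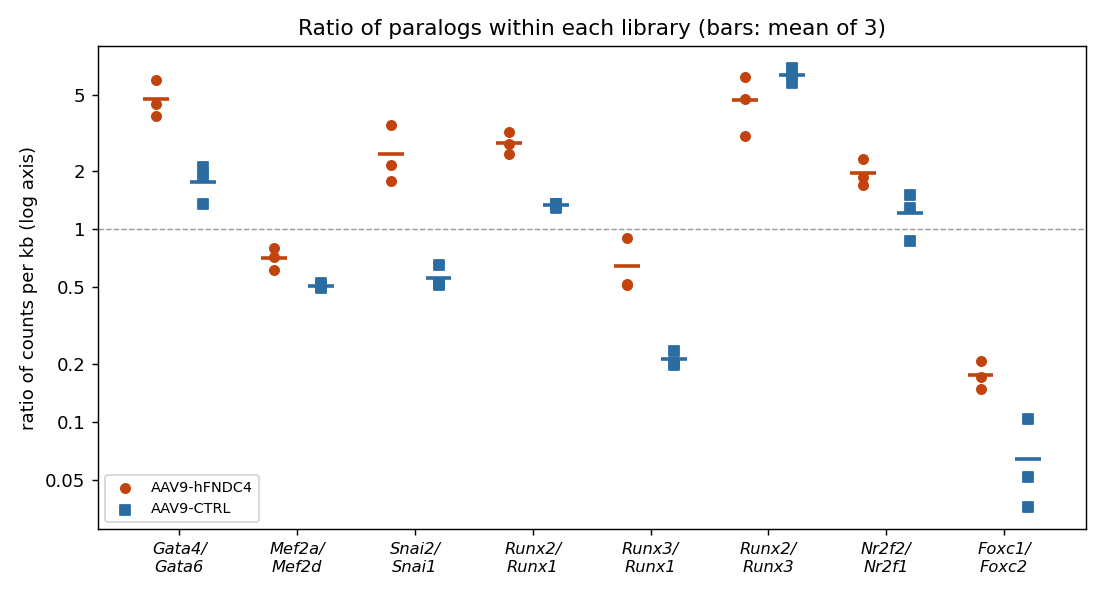
Ratio of counts per kb of exon for 8 combinations of paralogs, within each library, on a log axis. Orange-red circles are AAV9-hFNDC4 libraries, blue squares AAV9-CTRL libraries, and bars the mean of 3. Snai2 over Snai1 lies above 1 in all AAV9-hFNDC4 libraries and below 1 in all AAV9-CTRL libraries.

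Compared per kb of exon, Cebpb was the most abundant member, at 160 CPM per kb over the 6 libraries. Pparg (25.6), Mef2d (24.5), Snai2 (20.6), Snai1 (18.9), Mef2a (15.0), Zeb2 (12.9) and Twist2 (10.8) followed. Foxc1 and Gata6 had the lowest means over both groups, at 0.978 and 0.939 CPM per kb, and Gata4 stood at 2.69. Within the groups, the order at the low end was Etv2 (0), Gata6 (0.741) and Foxc1 (1.34) in the AAV9-hFNDC4 libraries, and Foxc1 (0.613), Runx3 (0.963) and Gata6 (1.14) in the AAV9-CTRL libraries. Apart from Cebpb and Pparg, neighbours in this order overlapped in their ranges over the 6 libraries. In the AAV9-hFNDC4 libraries Snai2 came after Cebpb, at 26.4 CPM per kb, and in the AAV9-CTRL libraries Pparg did, at 28.6.

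Partners of these factors were mostly expressed, with 22 of 25 at 1 CPM in at least 3 libraries. Of 23 tested, 7 were higher, 6 lower and 10 did not pass, with a median log2 fold change of 0.09, against 0.01 over all genes. Tcf4 and Tcf12, bHLH partners of TWIST and HAND proteins, were higher by 1.09 (SE 0.11) and 0.53 (SE 0.10). Hdac4, a deacetylase that holds MEF2 targets off, was higher by 1.22 (SE 0.13), and Ncoa1, a coactivator of nuclear receptors, by 1.60 (SE 0.12). With the length correction Tcf4, Tcf12, Hdac4 and Ncoa1 stood at 0.555, 0.243, 0.866 and 1.283 and kept their calls. The lower partners included Id2, which blocks bHLH factors by taking their partners, at 37.6 ± 2.81 CPM in the AAV9-hFNDC4 libraries and 130.5 ± 44.5 CPM in the AAV9-CTRL libraries (SD, n = 3 each), and Srf, a regulator of cytoskeletal genes, at -0.84 (SE 0.10). Cbfb, the RUNX partner, did not pass (0.16, SE 0.10). Zfpm2, the GATA cofactor of the heart, was higher by 0.39 (SE 0.13), which was 0.14 and not called with the length correction.

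Among 37 paralogs outside the members, 17 were expressed, and of 19 tested 7 were higher, 3 lower and 9 did not pass. The shares over all genes tested were 22.1% higher and 25.0% lower. Sox6, among the higher paralogs, was tested only because of its AAV9-hFNDC4 level, 0.717 CPM against 0.155 CPM in the AAV9-CTRL libraries. Tbx3, a T-box repressor of the conduction system and limb, was lower at 11.1 ± 0.160 CPM in the AAV9-hFNDC4 libraries and 24.9 ± 1.03 CPM in the AAV9-CTRL libraries (SD, n = 3 each). The ETS genes Ets2 and Etv1 were higher by 1.12 (SE 0.17) and 0.79 (SE 0.16), and Etv4 was lower (-0.76, SE 0.14). Ppard was higher by 0.46 (SE 0.11). Wt1, Meox2, Gata1 and Sox2 had 0 counts in all libraries. Of 6 tested genes that SNAI, ZEB and TWIST factors regulate, 2 were higher, 1 was lower and 3 did not pass. Fn1 (fibronectin) was higher by 1.53 (SE 0.12) and Tjp1, a junction protein, by 0.59 (SE 0.15), while Mmp9, a matrix protease, was lower (-2.54, SE 0.54). Mmp9 was tested only because of its AAV9-CTRL level, 1.39 CPM against 0.237 CPM in the AAV9-hFNDC4 libraries. With the length correction Tjp1 lost its call and Itgb4, an epithelial integrin, was called lower (-0.58). Cdh1 (E-cadherin), the classic target repressed by SNAI1, averaged 0.163 CPM in the AAV9-hFNDC4 libraries and 0.255 CPM in the AAV9-CTRL libraries, and was too low to test, and Vim did not pass.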

How the data were processed

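The authors' deposited file is a table of raw, whole-number counts with a row for each gene symbol. Per the submitters' processing notes, fastp, HISAT2, HTSeq, R 3.2.0 and DESeq2 were used with the mouse build GRCm38 (mm10). The sources used here give no annotation release, strand setting or rule for reads that match more than 1 gene. Differences were tested with edgeR 4.0.16 (R 4.3.3): filterByExpr kept 14663 genes, libraries were scaled by TMM, and groups were compared by the quasi-likelihood F test with robust dispersions and Benjamini-Hochberg adjustment at 0.05. The SE is the size of the log2 fold change over the square root of F. The 1 CPM limit uses plain library totals. Exon lengths and overlaps are those of GENCODE vM21 (GRCm38), found for 39 of 39 members. An exon length counts the merged exon bases of a gene over its annotated transcripts.

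The members and lists were chosen with earlier results of these data known. All members are given: those at 1 CPM in at least 3 libraries with each library's value, the rest by counts, and of the other lists mainly called genes with small p and defining markers. Some list genes outside that rule (Spp1, Dmp1, Cbfb, Cdh1, Vim, Itgb4, Zfpm2, Ppard, Mmp13, Flt1, Pecam1, Acta2, Myh11 and Sox6) were chosen after their values were seen. Alternatives were RLE and upper-quartile scaling, 2 other filters, DESeq2 1.42.0, limma-voom (limma 3.58.1), the replicate number as a block, a fold threshold, a length correction (loess, span 0.4, as offsets) and leaving out each library. The fits were checked on simulated counts. Replicates of a group differed by far more than sampling noise, with a chi-square per degree of freedom of at least 9.08 for every pair.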

Additional observations from a re-analysis of the deposited data

How the results depend on the processing

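Over 14 alternatives each for 20 members, 257 of 280 fitted changes kept their direction and side of the threshold, 20 lost the call, 2 gained it and 1 turned its sign. That 1 was Mef2d, never called, at -0.11 with the length correction in place of 0.09. With an absolute log2 fold change of at least 1 also required, 2 members were higher and 2 lower, and 993 and 1053 of all genes. Across the other fits, 7 to 10 members were higher and 4 to 7 lower, and the number of expressed members was 19 to 20. With the replicate number as a block, 10 members were higher and 4 lower, since Foxc2 (adjusted p = 0.0728) and Pparg (0.0594) were not called; the block ended no other member's call. The numbers are not shown to pair the libraries, since same-numbered libraries had correlations of deviations of -0.20 to -0.06 and none correlated best with its own number. Counts limit the 19 silent members: the 4 at 0 counts may have levels of up to 0.0143 CPM, and most others rest on a few reads. The ratio of Spi1 counts was 0.11 to 0.39 with each library left out in turn, an alternative chosen after seeing the data.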

Other observations

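Markers of 3 further cell types stood beside the vascular and stromal factors. Of 10 mural cell markers, 3 reached 1 CPM in at least 3 libraries, and their summed level was 624 to 684 CPM in the AAV9-hFNDC4 libraries and 377 to 431 CPM in the AAV9-CTRL libraries. Pdgfrb, the PDGF receptor of pericytes and fibroblasts, stood at 169.5 ± 6.89 CPM in the AAV9-hFNDC4 libraries and 81.8 ± 1.19 CPM in the AAV9-CTRL libraries (SD, n = 3 each). Cspg4 stood at 389.5 ± 25.6 CPM in the AAV9-hFNDC4 libraries and 237 ± 32.8 CPM in the AAV9-CTRL libraries (SD, n = 3 each), and both rose (edgeR adjusted p = 1.88e-05 and 0.000516). With the length correction the log2 fold change of Pdgfrb was 0.87 in place of 1.05 and that of Cspg4 0.37 in place of 0.72, both still called. Of 5 tested mural markers, 2 were higher, 2 lower and 1 did not pass, against 22.1% higher and 25.0% lower of all genes tested. The lower ones were Notch3 (-2.56) and Tagln (-1.80), and Tagln was not called with the length correction. Notch3 averaged 0.191 CPM and Tagln 0.163 CPM in the AAV9-hFNDC4 libraries. Both were tested only because of their levels in the AAV9-CTRL libraries, so no p-value is given for them. The smooth muscle genes Acta2 and Myh11 had 17 and 13 counts in the AAV9-hFNDC4 libraries and 32 and 47 in the AAV9-CTRL libraries. Of 10 epicardial and epithelial markers, Msln alone reached the limit, at 47.7 ± 2.29 CPM in the AAV9-hFNDC4 libraries and 77.3 ± 8.31 CPM in the AAV9-CTRL libraries (SD, n = 3 each), and fell by 0.70 on the log2 scale (edgeR adjusted p = 0.000467). Of 4 tested neural crest and Schwann cell markers, edgeR called 0, with 1 at an unadjusted p under 0.05, and DESeq2 and limma-voom called 0.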
